A study of Homo sapiens with 3 samples.

Results

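The 2 loci described here are the genes BCL11A and MEIS1 on chromosome 2, each with its surroundings, in a map of HMGA1 on the genome of DAMI cells. Members were chosen by position alone, as every HMGA1 peak with a summit between chr2:59500000-61500000 (BCL11A window) or chr2:65500000-67800000 (MEIS1 window) on hg19. They came to 552 of the 385953 peaks called over input DNA (the input list) and 396 of the 263033 peaks called over histone H3 (the H3 list). DAMI is a leukaemic cell line, labelled MPN/AML for its disease state, and no treatment of the cells is named. The 3 libraries, of 1 sample each, came from sonicated nuclei: a ChIP for HMGA1, a ChIP for the core histone H3, and input DNA that saw no antibody. Both lists were called from the same HMGA1 library, so a peak found in both is not replicated. No library has a replicate, so neither a replicate error nor a p-value can be given. Intervals below are 95% intervals for counting error only, and neighbouring peaks are not independent of each other.

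HMGA1 is an architectural chromatin protein whose AT-hooks bind the minor groove of AT-rich DNA, and it is abundant in embryonic and malignant cells. BCL11A encodes a zinc-finger repressor that silences the fetal globin genes in red-cell precursors and is needed for B-cell development. MEIS1 encodes a homeodomain protein of the TALE class that acts as a partner of HOX proteins in blood stem cells and megakaryocytes and is a known driver in HOX-type acute leukaemia. Expression of either gene was not measured in these libraries.

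The promoter sequences of both genes are shown because no HMGA1 peak was called at either start. Peaks covered 5.91% of chromosome 2 over input and 4.03% over H3, so most positions have no peak. The sequences are from RefSeq on GRCh38.p14 and cover 250 bases before to 50 bases after a listed start. They run 5′ to 3′ on the gene's own strand. Capitals mark runs of at least 5 bases of A or T. The BCL11A sequence, at chr2:60553875-60554174 on the minus strand, belongs to the outermost of 5 listed starts. The MEIS1 sequence, at chr2:66434875-66435174 on the plus strand, belongs to the only start listed.
BCL11A promoter: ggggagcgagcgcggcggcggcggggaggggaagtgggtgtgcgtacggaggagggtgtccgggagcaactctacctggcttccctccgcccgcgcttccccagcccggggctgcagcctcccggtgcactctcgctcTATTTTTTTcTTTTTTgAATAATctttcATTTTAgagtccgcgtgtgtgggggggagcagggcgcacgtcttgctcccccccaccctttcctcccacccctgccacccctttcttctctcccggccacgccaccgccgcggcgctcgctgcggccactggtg
MEIS1 promoter: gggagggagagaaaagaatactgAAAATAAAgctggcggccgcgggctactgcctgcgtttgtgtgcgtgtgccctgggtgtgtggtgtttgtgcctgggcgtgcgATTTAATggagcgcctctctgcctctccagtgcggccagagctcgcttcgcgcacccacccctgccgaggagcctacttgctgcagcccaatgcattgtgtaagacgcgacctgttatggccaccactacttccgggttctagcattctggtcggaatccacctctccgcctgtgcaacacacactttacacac
The BCL11A promoter was 33.0% A or T and the MEIS1 promoter 41.7%, against a median of 41.3% (quartiles 32.0 and 53.0) over the 35116 promoters of the same table. The longest A or T run was 9 bases at BCL11A and 8 bases at MEIS1. Runs at least that long were found in 27.9% and 36.9% of all promoters. The motif AATT, which reads the same on both strands, was in neither window and in 45.8% of all promoters.

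HMGA1 peaks were sparse across the BCL11A gene body, both over input DNA and over H3. The gene body (chr2:60684329-60780633, 96.31 kb) held 3 peaks over input, which is 31.2 peaks per Mb (interval 6.42 to 91.0). Its flanks held 262 peaks, or 138 per Mb (121.5 to 155.3). The density in the body was therefore 0.226 times that of the flanks (interval 0.0464 to 0.669). Over H3 the body held 1 peak against 195 in the flanks, a ratio of 0.101 (0.00255 to 0.571). For scale, the input list held 160.3 peaks per Mb on chromosome 2 as a whole and 132.4 on all autosomes, and the H3 list 116.9 and 90.9.

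The sides of BCL11A differed in gene content and, over input, in peak density. RefSeq on GRCh38 lists no named protein-coding gene within the length of the flank below BCL11A (lower coordinates, past the end of the gene, which is transcribed towards lower coordinates). On the other side it lists 7, among them PAPOLG, a poly(A) polymerase, REL, an NF-κB subunit, and USP34, a deubiquitinating enzyme. Gene content was not checked on hg19, and its relation to peak density was not tested. The flank below held 143 peaks over input, or 120.7 per Mb, and the flank above held 119, or 165.4 per Mb (ratio 0.73, interval 0.568 to 0.939). Over H3 the values were 91.2 and 120.9 per Mb, with a ratio of 0.754 and an interval of 0.563 to 1.01 that includes 1. The BCL11A body was thus sparser than either side: 0.258 times the flank below (0.0526 to 0.769) and 0.188 times the flank above (0.0383 to 0.564) over input.

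**Figure D1:**
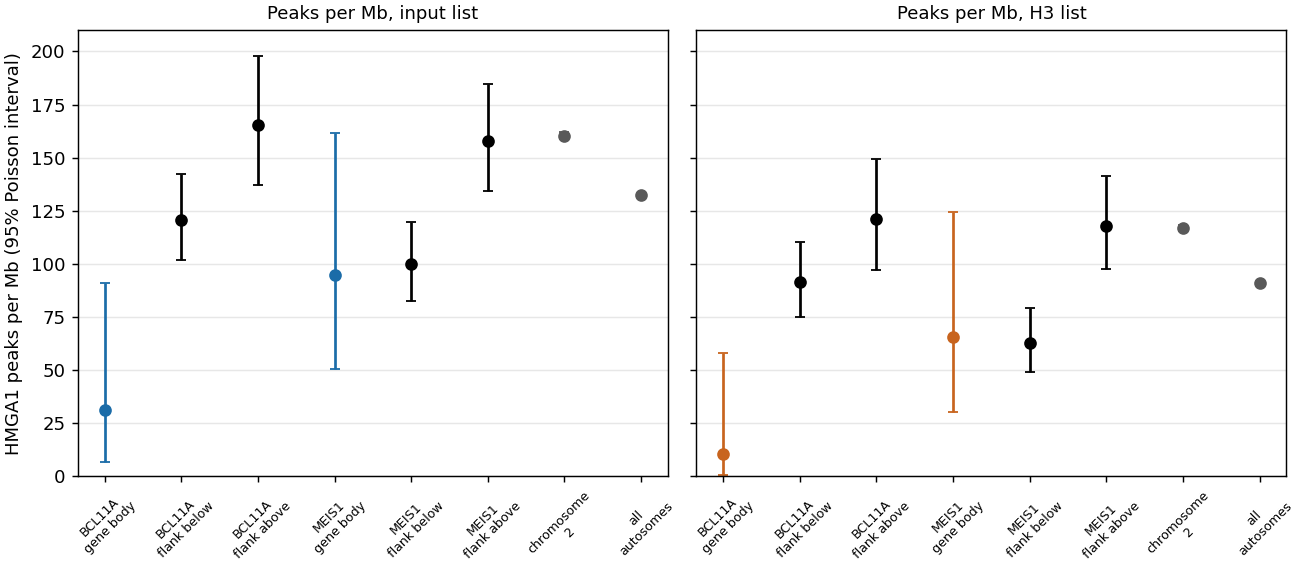
HMGA1 peaks per Mb in the gene bodies and flanks of BCL11A and MEIS1, on chromosome 2 and on all autosomes, for the input list (left) and the H3 list (right). Points are densities and bars 95% Poisson intervals for counting error. The BCL11A body lies at 31.2 and 10.4 peaks per Mb, below both of its flanks, whereas the intervals of the MEIS1 body overlap those of its flanks.

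All 3 peaks of the BCL11A body lay near its start, between 13.5 and 22.0 kb inside it, and the rest of the gene held none. The folds and q-values of single peaks are the authors' own. The number of HMGA1 reads at each summit was worked out from its fold and p-value. The control level is the input or H3 level that the peak calling set against the summit, recovered from the same values. It cannot fall below a genome-wide floor of 2.78 reads for input and 2.19 reads for H3. Nor need it equal the control reads at the summit base itself. In the H3 list HMGA1 reads were multiplied by 0.787 before the fold was taken, so H3 levels are on that lower scale. HMGA1 reads are given unscaled. Input levels are on the scale of the unscaled HMGA1 reads and need not be raw input reads. H3 and input are therefore compared relative to their floors. The peak with the highest q-value score in the body (chr2:60758466-60758753) lay 22.0 kb inside the start. It had 24 HMGA1 reads against an input level of 2.91 reads, a fold of 6.39 over input. It was also the only 1 of the 3 with a peak over H3. Over H3 its fold was 5.55 against an H3 level of 2.58 reads and its summit was 1 bp away. In the whole input list 65.8% of peaks had an H3-list peak, within the interval of 6.15 to 79.2% for 1 of 3.

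The other BCL11A peaks were low. The peak at chr2:60764250-60764568, 16.1 kb inside the start, had 13 HMGA1 reads and a fold of 3.66 over input. The peak at chr2:60767073-60767259, 13.5 kb inside, had 10 reads and a fold of 2.91 with input at its floor. Neither had a peak over H3, and the lowest HMGA1 pileup called anywhere over input was 8 reads, against 11 over H3. Input at the 3 sites was between 1.0 and 1.05 times its floor, and a fold is understated where the true control lies below the floor.

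No HMGA1 peak was called over the known erythroid enhancer of BCL11A. Peaks covered 5.91% of chromosome 2 over input and 4.03% over H3, so most positions lack one. This intronic enhancer, which maintains BCL11A expression in red-cell precursors, is usually described as a trio of open sites about 55, 58 and 62 kb inside the start. The nearest peak to each of these positions was the peak 22.0 kb inside the start, which lay 33.0, 36.0 and 40.0 kb from them in both lists. The enhancer fell in a peak-free stretch of 81.7 kb (chr2:60676797-60758465), of which 74.1 kb was in the gene. It was the longest peak-free stretch of the BCL11A window in both lists. On chromosome 2 as a whole 83 of the 38974 gaps between neighbouring input-list peaks were at least as long, centromere included, and the median gap was 2.68 kb. Over H3, 189 of the 28418 gaps were at least as long. The next longest stretches of the BCL11A window over input, of 67.5 and 65.7 kb, lay outside the gene. Because long gaps hold more bases, a given position falls in one more often than the count of gaps implies. The lists give no value between peaks, so HMGA1 in the 81.7 kb stretch was below the calling limit and its level is unknown.

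The start of BCL11A lay in a further peak-free stretch, of 17.8 kb over input and 27.4 kb over H3. The nearest peak upstream (chr2:60785055-60785241, 4.46 kb from the start) had 16 HMGA1 reads and a fold of 3.12 over input, with input at 1.6 times its floor and no peak over H3. The next peak, 5.62 kb upstream (chr2:60786113-60786434), had 28 reads. Its fold was 3.57 over input and 5.91 over H3, with input at 2.56 and H3 at 1.32 times their floors. Past the end of the gene, the nearest peak was 7.65 kb away (chr2:60676531-60676796) with 25 reads and folds of 6.45 over input and 6.48 over H3. That peak was followed by a second empty stretch of 51.7 kb.

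**Figure D2:**
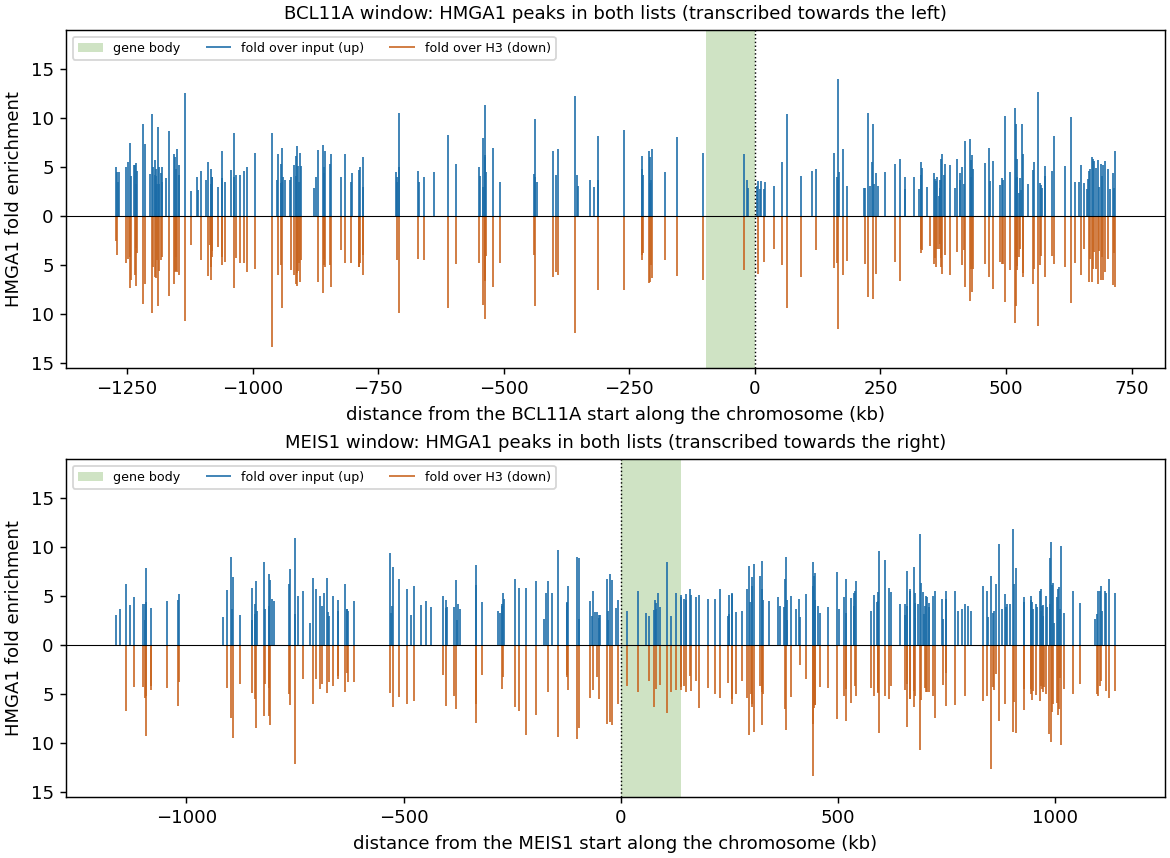
HMGA1 peaks in the BCL11A window (top) and the MEIS1 window (bottom) by distance in kb from the gene start along the chromosome. Each line is a peak, its height the fold enrichment over input (upwards) or over H3 (downwards), and green marks the gene body. The BCL11A body holds 3 lines above and 1 below the axis, all near the start, and the MEIS1 body holds 13 and 9.

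The sparse BCL11A body was not isolated from its surroundings. The window was divided into tiles of the body's own length, stepped outwards from the body, which gave 12 tiles below and 7 above. The body's 3 input-list peaks were the lowest count, shared with the tile next below it. The other tiles held 3 to 27 peaks, with a median of 10. The 7 tiles nearest below the gene held 3 to 10 peaks each, and the 5 beyond them 9 to 27. On the upstream side the 3 nearest tiles held 10, 9 and 12 peaks and the next 4 held 20, 17, 23 and 15. Over H3 the body had 1 peak and every other tile between 2 and 21. Among the 2466 tiles of this length on chromosome 2 that held an input-list peak, 6.37% had 3 peaks or fewer and the median had 14.

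**Figure D3:**
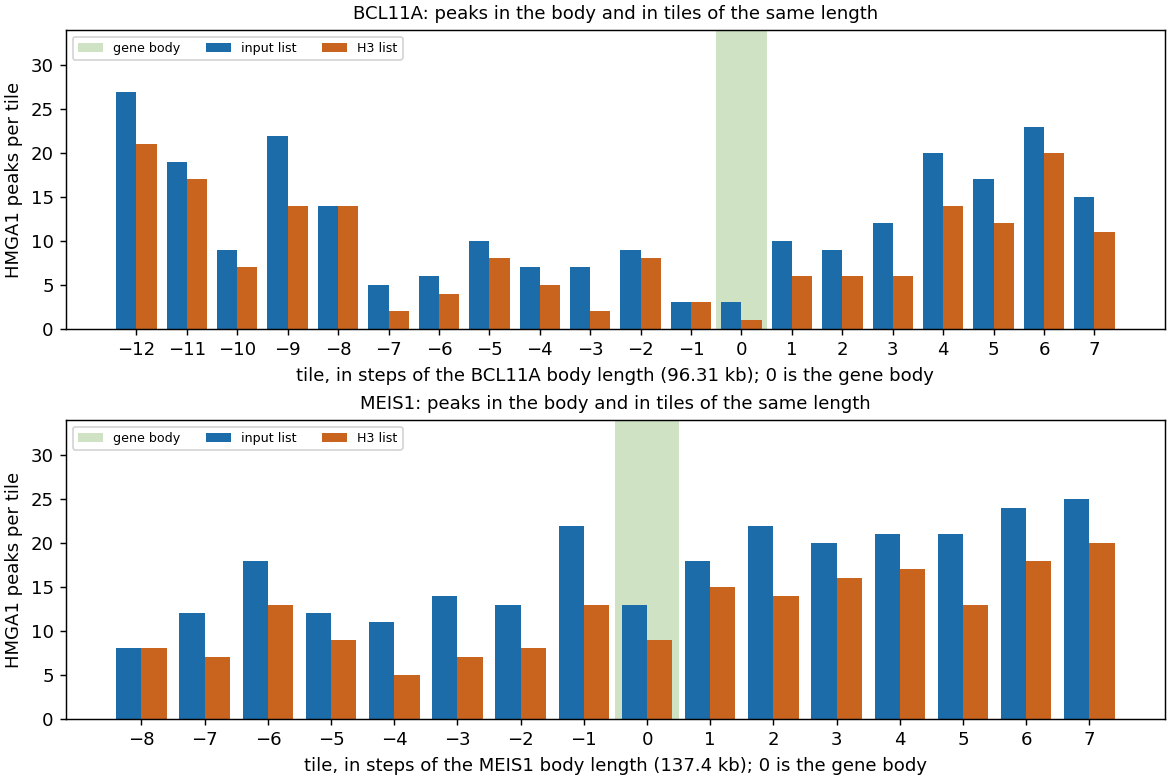
HMGA1 peaks counted in the gene body (tile 0, green) and in neighbouring tiles of the same length for BCL11A (top) and MEIS1 (bottom), in the input list (blue) and the H3 list (orange). Counts in the BCL11A window are lower near the gene than at either end of the window, with 3 and 1 peaks in the body, and counts above MEIS1 reach 25 and 20.

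The MEIS1 gene body held HMGA1 peaks at a density that could not be told apart from that of its flanks. The body (chr2:66662532-66799891, 137.4 kb) held 13 peaks over input, or 94.6 per Mb (interval 50.4 to 161.8), against 274 in the flanks, or 126.7 per Mb. The ratio was 0.747 (interval 0.393 to 1.3). Over H3 the body held 9 peaks against 191, a ratio of 0.742 (0.334 to 1.44). Tiles of the body's length gave a like picture: the body had 13 input-list peaks and the other 15 tiles 8 to 25, of which 4 had fewer and 10 had more. Between the genes, the BCL11A body had 0.329 times the density of the MEIS1 body over input (0.0602 to 1.2) and 0.158 times over H3 (0.00362 to 1.14). Both intervals include 1.

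Peaks were denser past the end of MEIS1 than before its start. The flank below MEIS1, upstream of its start, held 116 peaks over input, or 99.8 per Mb, and the flank above, past its end, held 158, or 158 per Mb (ratio 0.632, interval 0.493 to 0.808). Over H3 the densities were 62.8 and 118 per Mb (ratio 0.532, interval 0.392 to 0.719). RefSeq on GRCh38 lists 1 named protein-coding gene within the length of each flank. These are SPRED2, an inhibitor of RAS-MAPK signalling, upstream and ETAA1, a replication stress factor, past the end. Whether gene content bears on peak density was not tested here either. All 7 tiles past the end held more input-list peaks (18 to 25) than the body, whereas the 8 upstream tiles held 8 to 22. The body matched the upstream side, at 0.948 times its density over input (0.49 to 1.69) and 1.04 times over H3 (0.459 to 2.09). It was at 0.599 times (0.312 to 1.05) and 0.555 times (0.248 to 1.09) the density past the end, and those intervals also include 1.

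Within MEIS1, no summit lay in the first 15 kb and input-list peaks were closest together in the middle of the gene. The first peak inside the gene lay 15.1 kb from the start (chr2:66676845-66677672). It was 828 bp wide with 18 HMGA1 reads and folds of 3.49 over input and 4.19 over H3. The nearest peak upstream was 5.93 kb away (chr2:66656477-66656759), with 24 reads and folds of 4.59 over input and 6.02 over H3. Between them the start lay in a peak-free stretch of 20.1 kb over input and 20.8 kb over H3. Of the gaps between input-list peaks on chromosome 2, 5.47% were at least as long. That share counts gaps and not bases, so a given position falls in such a gap more often. From 76.0 to 89.2 kb inside the start, 6 of the 13 peaks followed each other. Past the end, peaks lay at 0.562 and 1.78 kb, with 18 and 22 reads and folds of 4.92 and 5.12 over input.

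The 5 highest MEIS1 peaks by q-value score lay between 40.0 and 126.1 kb inside the start. The first by q-value score in both lists lay 105.6 kb inside the start (chr2:66767898-66768316), with 37 HMGA1 reads. Its fold was 8.49 over an input level of 3.48 reads and 6.9 over an H3 level of 3.37 reads. The second over input, 40.0 kb inside (chr2:66702099-66702667), had 29 reads and folds of 5.51 over input and 4.76 over H3. The next place was tied. The peak 85.2 kb inside (chr2:66747650-66747871) had 22 reads and a fold of 5.31 over input and no peak over H3. The peak 126.1 kb inside (chr2:66788287-66788755) had the same 22 reads and fold of 5.31 over input, and 4.58 over H3.

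Among the 9 MEIS1 body peaks found in both lists, the controls differed most at the fifth by q-value score over input. This peak, 76.0 kb inside the start (chr2:66738302-66738751), had 31 HMGA1 reads with its summit at the same base in both lists. Input stood at 8.01 reads, 2.88 times its floor, and H3 at 3.0 reads, 1.37 times its floor. The fold was accordingly 3.55 over input and 6.35 over H3, where it ranked second in the gene. The peak 116.2 kb inside the start (chr2:66778616-66778802) showed the same order, with 18 reads, an input level of 5.34 reads and an H3 level of 2.19 reads. Of the 4 MEIS1 body summits at the same base in both lists, input exceeded H3 by more than 1.5 times relative to the floors at these 2, and H3 exceeded input as much at none. In the MEIS1 flanks input was higher by that margin at 13 of 83 such summits and H3 at 5, and in the BCL11A flanks at 13 and 2 of 82. The share over all 114050 such summits of the genome was not worked out. Whether these counts are particular to the loci is therefore unknown. A control level of a few reads moves in coarse steps, so a difference at one summit rests on few reads.

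**Figure D4:**
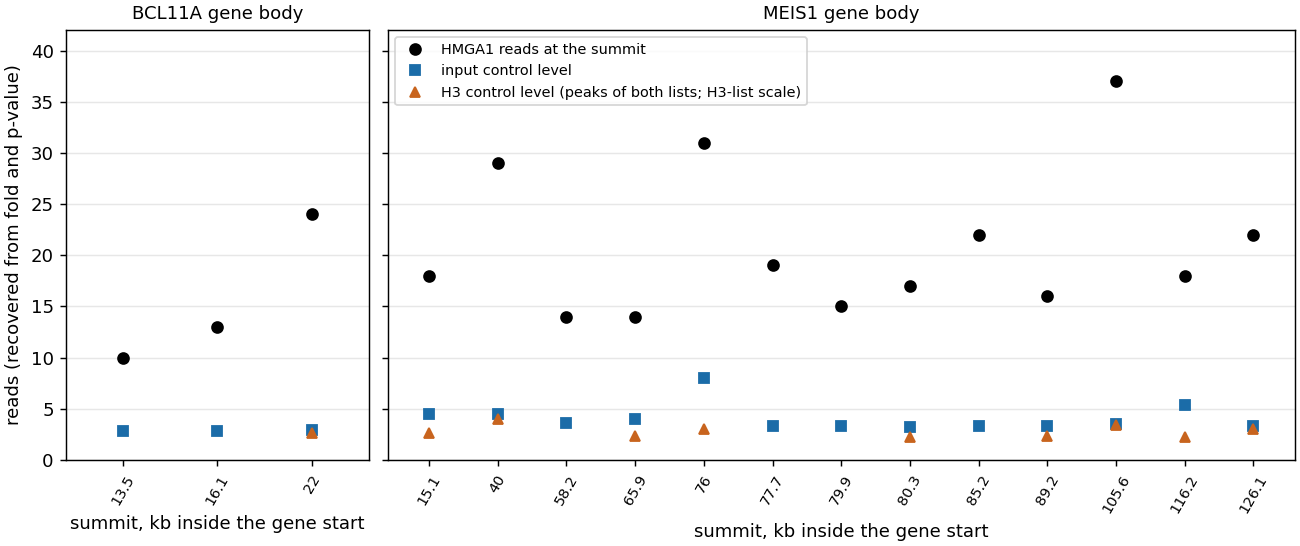
Recovered HMGA1 reads (black), input control level (blue) and H3 control level (orange, for peaks found in both lists, on the scale where HMGA1 is multiplied by 0.787) at the summits of input-list peaks in the BCL11A body (left) and the MEIS1 body (right), by distance inside the gene start. HMGA1 reads run from 10 to 24 in BCL11A and from 14 to 37 in MEIS1, and the MEIS1 peak at 76.0 kb has an input level of 8.01 reads.

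Over all called peaks, the median fold over input was lower in both bodies than in their flanks, with quartiles or ranges that overlapped. The median fold over input was 3.66 in the BCL11A body (3 peaks, 2.91 to 6.39) and 4.57 in its flanks (quartiles 3.68 and 5.83). It was 3.93 in the MEIS1 body (quartiles 3.49 and 5.31) and 4.76 in its flanks (3.83 and 5.82). HMGA1 reads at the summit had medians of 13 and 20 in the BCL11A body and flanks, and 18 and 20 in the MEIS1 body and flanks. Over all autosomes the medians were a fold of 4.5 and 19 reads. For BCL11A the order rests on its 2 low body peaks: with a −log10 q-value of 5 or more, 1 body peak was left, at 6.39 against a median of 5.26 in the flanks, and over H3 its 1 body peak stood at 5.55 against 5.32. For MEIS1 the medians over H3 were 4.58 in the body and 5.19 in the flanks. The median input level at the summits of input-list peaks was 1.02 and 1.25 times the floor in the BCL11A body and flanks, 1.25 and 1.14 times in the MEIS1 body and flanks, 1.21 times over chromosome 2 and 1.14 times over all autosomes. These levels are for called peaks and say nothing of input between them. Peaks covered 0.824% of the BCL11A body and 5.11% of its flanks over input, and 3.32% of the MEIS1 body and 4.49% of its flanks.

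Whether an input-list peak was also found over H3 followed its height at both loci. Such a rise is built into the calling. Both lists use the same HMGA1 reads, and the lowest pileup called was 8 reads over input and 11 over H3. An H3-list peak was counted where it overlapped by at least 1 bp, and 65.8% of all input-list peaks had one. In the BCL11A body it was 1 of 3 peaks and in its flanks 189 of 262 (72.1%, interval 66.4 to 77.2). In the MEIS1 body it was 9 of 13 (69.2%, 42.4 to 87.3) and in its flanks 185 of 274 (67.5%, 61.8 to 72.8). Both MEIS1 intervals and that of the BCL11A body (6.15 to 79.2%) span the 65.8% of the whole list, and that of the BCL11A flanks begins just above it, so these shares are near the background. Flank peaks of 8 to 15 HMGA1 reads had an H3-list peak in 11.1% (BCL11A) and 12.7% (MEIS1) of cases, those of 16 to 20 reads in 72.4% and 60.9%, and those of 21 reads or more in 99.2% and 100%. The autosomes gave 15.4%, 66.7% and 96.9% in the same classes. Against that pattern the MEIS1 peak 85.2 kb inside the start had 22 reads and no H3-list peak. All 124 MEIS1 flank peaks of 21 reads or more had one. So did 120 of 121 in the BCL11A flanks and 163217 of 168495 on the autosomes, so such peaks without one occur elsewhere too. The MEIS1 peak was singled out after its values were seen. In the other direction, 98.3% of the whole H3 list overlapped an input-list peak, as did all 10 H3-list peaks of the bodies.

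The strongest HMGA1 sites of both windows lay outside the genes. The gene bodies held 16 of the 552 input-list peaks, so by number alone most leading peaks would lie in the flanks. Above BCL11A the first input-list peak by q-value score was 165.6 kb upstream of its start (chr2:60945994-60946370), with 52 HMGA1 reads and folds of 14.0 over input and 11.6 over H3. The second, 563 kb upstream (chr2:61343437-61343804), had 56 reads, the most in the window, and folds of 12.6 and 11.3. The third, 517.2 kb upstream, had 45 reads and a fold of 11.0 over either control. Below BCL11A the first over input (chr2:59646171-59647270, 1100 bp wide) had 48 reads and folds of 12.6 and 10.7, followed by chr2:60422050-60422470 with 47 reads and folds of 12.3 and 11.9 and by a peak of 43 reads and 11.3-fold. Over H3 the first below BCL11A was chr2:59818354-59818783 with 53 reads, at 13.4-fold over H3 and 8.52-fold over an input level of 5.34 reads.

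Around MEIS1 the leaders were of similar height. Upstream, the first peak in both lists was chr2:65912646-65913027, 749.7 kb from the start, with 49 reads and folds of 11.0 over input and 12.2 over H3. The next 2 over input lay close together, 97.2 and 101.7 kb upstream, with 42 and 40 reads and folds of 8.91 and 8.99. Past the end, the first over input was chr2:67563989-67564434 with 44 reads and folds of 11.9 over input and 8.9 over H3, followed by chr2:67350171-67350654 with 42 reads and folds of 11.4 and 10.7. The peak at chr2:67103666-67104754, 1089 bp wide and the third over input, was first over H3. It had 53 reads, the most in the MEIS1 window, a fold of 8.52 over an input level of 5.34 reads, and 13.4-fold over H3 at its floor. The highest body peaks, at 37 reads in MEIS1 and 24 reads in BCL11A, stood below each of these leaders. The leaders are the top of many flank peaks and the body peaks the top of few, so this is no like-for-like comparison.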

How the data were processed

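HMGA1 ChIP, H3 ChIP and input DNA from DAMI cells (1 library each) were measured by sequencing. Per the submitters' processing notes, the authors called peaks with MACS2 on hg19; its version, the aligner and any filters on reads are nowhere given in the sources used here. Each row of the 2 deposited lists holds a peak interval, its summit, a fold (a ratio of HMGA1 over the control), its −log10 p-value and −log10 q-value, and a score, a whole number made from the q-value. Peak names in the deposited files carry another prefix than HMGA1, so the ChIP was taken to be HMGA1 from the list names and labels. No gene, promoter or sequence was read from hg19 here. Gene bodies were those given with the window limits, and strands came from RefSeq.

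The lists hold no counts, and library depths are unknown. HMGA1 reads and control levels at summits were recovered from fold and p-value, taking the fold as pileup plus 1 over control plus 1 and the p-value as a Poisson tail. A whole number of reads matched the printed −log10 p-value to within 0.001 for all 385953 input-list and 263033 H3-list peaks, the latter after scaling HMGA1 by 0.787, a factor fitted on 400 peaks. The recovery was tested on simulated data. A summit within 1% of the lowest control level was counted as at the floor.

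Peaks were assigned by summit. Densities have exact Poisson intervals, density ratios exact binomial (Clopper-Pearson) intervals and shares Wilson intervals, all at 95% and for counting error only. No test between groups was possible with 1 library each. Named peaks were those in or within 5 kb of a gene body, the peaks nearest 3 known enhancer positions, and the 3 highest by q-value score per flank. The nearest peaks beyond 5 kb, the widest peaks and any H3-list peaks without an input-list peak are named outside this rule, chosen after their values were seen. The windows, genes and lists were chosen with earlier results of these data known. Tiles, peak-free stretches and promoters were added after the peak positions were seen. The scripts ran on Python 3.11.15 with scipy 1.17.1, numpy 2.4.6, matplotlib 3.10.9 and pandas 2.3.3.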

Additional observations from a re-analysis of the deposited data

How the results depend on the processing

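Leaving out a replicate was not possible with 1 library per antibody. No paired analysis was possible because each antibody has a single library. The density ratio of body over flanks ran from 0.103 to 0.439 (input list) and 0.0859 to 0.252 (H3 list) for BCL11A over all 7 alternatives, below 1 in each, with the highest values when 10 kb was added at both ends. For MEIS1 it ran from 0.495 to 0.948 and from 0.555 to 1.04, and all of its intervals included 1. Under a minimum of 5 for the −log10 q-value or of 4 for the fold, BCL11A kept 1 peak in its body over input, and the share of its body peaks found over H3 was then 100%. With a fold of at least 4 the share in the BCL11A flanks was 79.5%. Under the same minimum for the −log10 q-value the median fold was 5.26 (input) and 5.9 (H3) in the BCL11A flanks and 5.29 and 5.5 in the MEIS1 flanks. With peaks at the control floor alone it was 5.02 and 5.99 in the BCL11A flanks and 5.5 over H3 in the MEIS1 flanks. These thresholds drop low peaks by construction. No MEIS1 body peak over input and no BCL11A body peak over H3 was at the floor, so those medians have no such value. The other 48 values stayed within their intervals. No site under 8 HMGA1 reads over input or 11 over H3 was called. These are the lowest pileups seen at called peaks and not a fixed detection limit. Sites with more reads can also go uncalled where the control level is higher.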

Other observations

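The widest HMGA1 peak of each window lay outside both genes in both lists. The gene bodies held only 16 of the 552 input-list peaks and 10 of the 396 H3-list peaks. The widest input-list peak of the MEIS1 window was at chr2:67255824-67257962, 594.7 kb from the start and past the end of the gene, and spanned 2139 bp with 36 HMGA1 reads and a fold of 9.62. Its H3-list counterpart spanned 2121 bp at 8.94-fold. In the BCL11A window the widest over input was a 1658 bp peak at chr2:59536827-59538484 with 25 reads and a fold of 4.1. Over H3 it was a 1042 bp peak at chr2:60169660-60170701 with 37 reads and a fold of 9.44. The widest body peak was the 828 bp MEIS1 peak nearest the start, whose H3-list counterpart spanned 232 bp.

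H3-list peaks without an input-list peak numbered 1 in the BCL11A window and 4 in the MEIS1 window. The share with an input-list peak was 99.5% and 98.0% in these windows, near the 98.3% of the whole H3 list. The BCL11A one (chr2:61129318-61129571) had 13 HMGA1 reads and a fold of 3.01 over H3. The MEIS1 ones had 16 to 20 reads and folds of 4.18 to 5.0. The gene bodies held only 10 of the 396 H3-list peaks, and none of those without an input-list peak lay there. The longest peak-free stretch of the MEIS1 window, 101.7 kb over input (chr2:65646193-65747922), was also outside the gene, on its upstream side.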
